A study of Homo sapiens with 28 samples.

Results

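The genes described here are 88 long noncoding RNAs whose levels separated the 3 culture labels of wild type cells on day 8. They were taken from 14670 genes that the deposited table types as lincRNA, antisense, processed transcript, sense intronic or sense overlapping, out of 58219 genes in all, after 6 genes were left out by name. A gene was chosen if both wild type libraries of 1 day 8 label held at least 5 TPM (transcripts scaled by length and to a fixed library total) and TPM + 1 there was at least 4 times the highest TPM + 1 of both libraries of another day 8 label. The values that chose the genes are therefore the 6 wild type day 8 libraries, and differences among these are given below as a description only. Of the 88 genes, 29 were highest under the label IWP2, 37 under CT0.4 and 22 under CT1.0, and these are called the IWP2, CT0.4 and CT1.0 groups of genes. The same numeric rule was met by 414 protein-coding genes.

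All libraries come from H9, an established human embryonic stem cell line, either wild type or SOX1-/-, and were made from poly(A) RNA. Undifferentiated cells (day 0) and cells on day 4 and day 8 of neural differentiation under the labels IWP2, CT0.4 or CT1.0 were sampled in both genotypes, which gives 14 groups of 2 libraries, 28 in all. IWP2 is an inhibitor of WNT secretion; the labels do not spell out CT or give its numbers a unit. Wild type libraries are numbered 1 and 2 and SOX1-/- libraries 26 and 48 after the sample titles, and libraries with the same number are called a line here. The labels do not state whether a number marks a clone, a culture or only a replicate, so p-values measure only the spread between these libraries. The SOX1-/- cells carry the deletion at every time point, day 0 included, and no line with SOX1 restored was sampled.

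Long noncoding RNAs are transcripts without a long reading frame. Many in the developing nervous system start close to a gene for a regional transcription factor and run away from it on the opposite strand (divergent) or across it (antisense), and their levels often follow those of that gene. Others, such as RMST and SOX2-OT, are long spliced transcripts known from neural progenitors, and some are the precursors of microRNAs. Along the neural tube, SIX3 and FEZF1 mark the forebrain, OTX1 and LMX1B lie in forebrain and midbrain territories, and GDF7 and LMX1A mark the dorsal midline.

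By type the 88 genes were 45 lincRNA, 34 antisense, 5 processed transcript, 3 sense overlapping and 1 sense intronic genes, and 57 carried only a clone identifier as a name. In GENCODE 29 (GRCh38) 86 were found, the median of their longest transcripts was 740 nt and 13 had a single exon. A protein-coding neighbour, named in the gene's own name or starting within 100 kb, was found for 68. The gene was antisense to and overlapping that neighbour in 26 cases, divergent in 17, on the same strand without overlap in 15, on the same strand with overlap in 6 and convergent in 4. Of 17 neural long noncoding RNAs listed from textbook knowledge and present in the table under the listed name, 5 are among the 88 (FEZF1-AS1, LINC01551, RMST, SIX3-AS1 and SOX2-OT). Another listed one, SOX1-OT, stands in the table as LINC00403 and is also among them. None of 8 listed for pluripotent cells and none of 10 listed as widely expressed are among them.

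RefSeq start windows (250 bases before to 50 after a start, GRCh38.p14) were found for 21 of the 88 genes. One from each group of genes is printed, because LINC01833, RMST and LINC00404 were among the highest genes of their groups and IWP2 acts on the WNT pathway. Capitals mark CTTTGA, the core bound by TCF/LEF factors of the WNT pathway, and ACAATG, the core bound by SOX factors, each on either strand (reverse complements TCAAAG and CATTGT). LINC01833 (chr2:44939150-44939449, minus strand), of the IWP2 group, held neither. RMST (chr12:97464441-97464740, plus strand), of the CT0.4 group, held 2 TCF/LEF cores and 1 SOX core; this RefSeq start lies 33807 bases from the GENCODE start of the gene. LINC00404 (chr13:112106580-112106879, minus strand), of the CT1.0 group, held 1 TCF/LEF core and 2 SOX cores.
LINC01833: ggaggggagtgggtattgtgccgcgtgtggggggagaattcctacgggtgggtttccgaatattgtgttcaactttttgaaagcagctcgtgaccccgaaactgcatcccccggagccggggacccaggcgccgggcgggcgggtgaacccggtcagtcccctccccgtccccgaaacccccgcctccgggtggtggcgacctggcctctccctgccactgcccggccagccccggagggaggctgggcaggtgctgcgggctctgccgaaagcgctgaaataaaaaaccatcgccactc
RMST: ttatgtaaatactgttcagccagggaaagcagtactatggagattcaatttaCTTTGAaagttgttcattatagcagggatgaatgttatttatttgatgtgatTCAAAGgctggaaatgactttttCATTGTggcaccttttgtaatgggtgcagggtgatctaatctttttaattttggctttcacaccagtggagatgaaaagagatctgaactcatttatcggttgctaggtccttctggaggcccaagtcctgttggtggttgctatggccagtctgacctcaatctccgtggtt
LINC00404: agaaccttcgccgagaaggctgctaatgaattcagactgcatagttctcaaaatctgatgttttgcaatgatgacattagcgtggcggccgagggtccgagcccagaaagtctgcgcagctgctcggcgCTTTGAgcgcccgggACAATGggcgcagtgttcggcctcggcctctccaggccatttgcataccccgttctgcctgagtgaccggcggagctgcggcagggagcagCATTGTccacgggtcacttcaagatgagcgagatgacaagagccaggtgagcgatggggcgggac
Over all 35116 RefSeq windows of this length, 12.9% held CTTTGA and 10.8% ACAATG; of the 21 windows of these genes, 2 held the first and 4 the second. The homeodomain cores TAATCC and TAATTA stood in 6.36% and 4.84% of all windows and in 0 and 3 of the 21. A match is a description of these letters and not a site.

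According to RefSeq positions, 6 of the 88 genes span 10 microRNA genes with 18 mature microRNAs, which carry 18 different seeds (bases 2 to 8). Of 3 hosts of the CT1.0 group, the 5p arms and miR-219a-2-3p are printed and the other 3p arms are not; the seed is in capitals. They were picked because these host RNAs were highest under CT1.0 among wild type day 8 cells. MIR217HG (chr2:55963191-56047326, minus strand) spans miR-217, miR-216a and miR-216b, known from the pancreas. MIR219A2 spans miR-219a-2, known for its role in oligodendrocyte precursors, and MIR503HG spans miR-503, known from cell cycle control.
hsa-miR-217-5p: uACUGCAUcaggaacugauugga
hsa-miR-216a-5p: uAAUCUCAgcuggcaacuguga
hsa-miR-216b-5p: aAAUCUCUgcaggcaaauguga
hsa-miR-219a-5p: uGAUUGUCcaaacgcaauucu
hsa-miR-219a-2-3p: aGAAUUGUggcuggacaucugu
hsa-miR-503-5p: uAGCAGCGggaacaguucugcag
The libraries are of long poly(A) RNA, so the values given are those of the host RNA and the mature microRNAs were not measured.

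The plot of all 88 genes over the 14 groups shows the choice and what lies outside it. Summed over the 29 genes of the IWP2 group, TPM in wild type day 8 cells was 1015 and 1087 under IWP2, 78.1 and 56.7 under CT0.4 and 52.7 and 53.2 under CT1.0. The 37 genes of the CT0.4 group summed to 1627 and 1424 under CT0.4, 166.0 and 149.8 under IWP2 and 139.9 and 107 under CT1.0. The 22 genes of the CT1.0 group summed to 1149 and 1179 under CT1.0, 97.6 and 138 under IWP2 and 147 and 201 under CT0.4. Each group of genes was thus highest in sum under the label that names it. The rule asks for a gap to only 1 other label. It was met against both other labels by 14 of 29 genes of the IWP2 group, 18 of 37 of the CT0.4 group and 11 of 22 of the CT1.0 group. Just inside the limit of 4 stood SOX9-AS1 (ratio 4.06, 9.26 and 18.3 TPM under IWP2 against 1.53 and 1.22 under CT1.0) and LINC00982 (ratio 4.08), and just outside it RP11-192H6.2 (3.87) and CTA-363E6.1 (3.81). All 88 genes together made up 0.0333% to 0.200% of the TPM of a library.

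**Figure D1:**
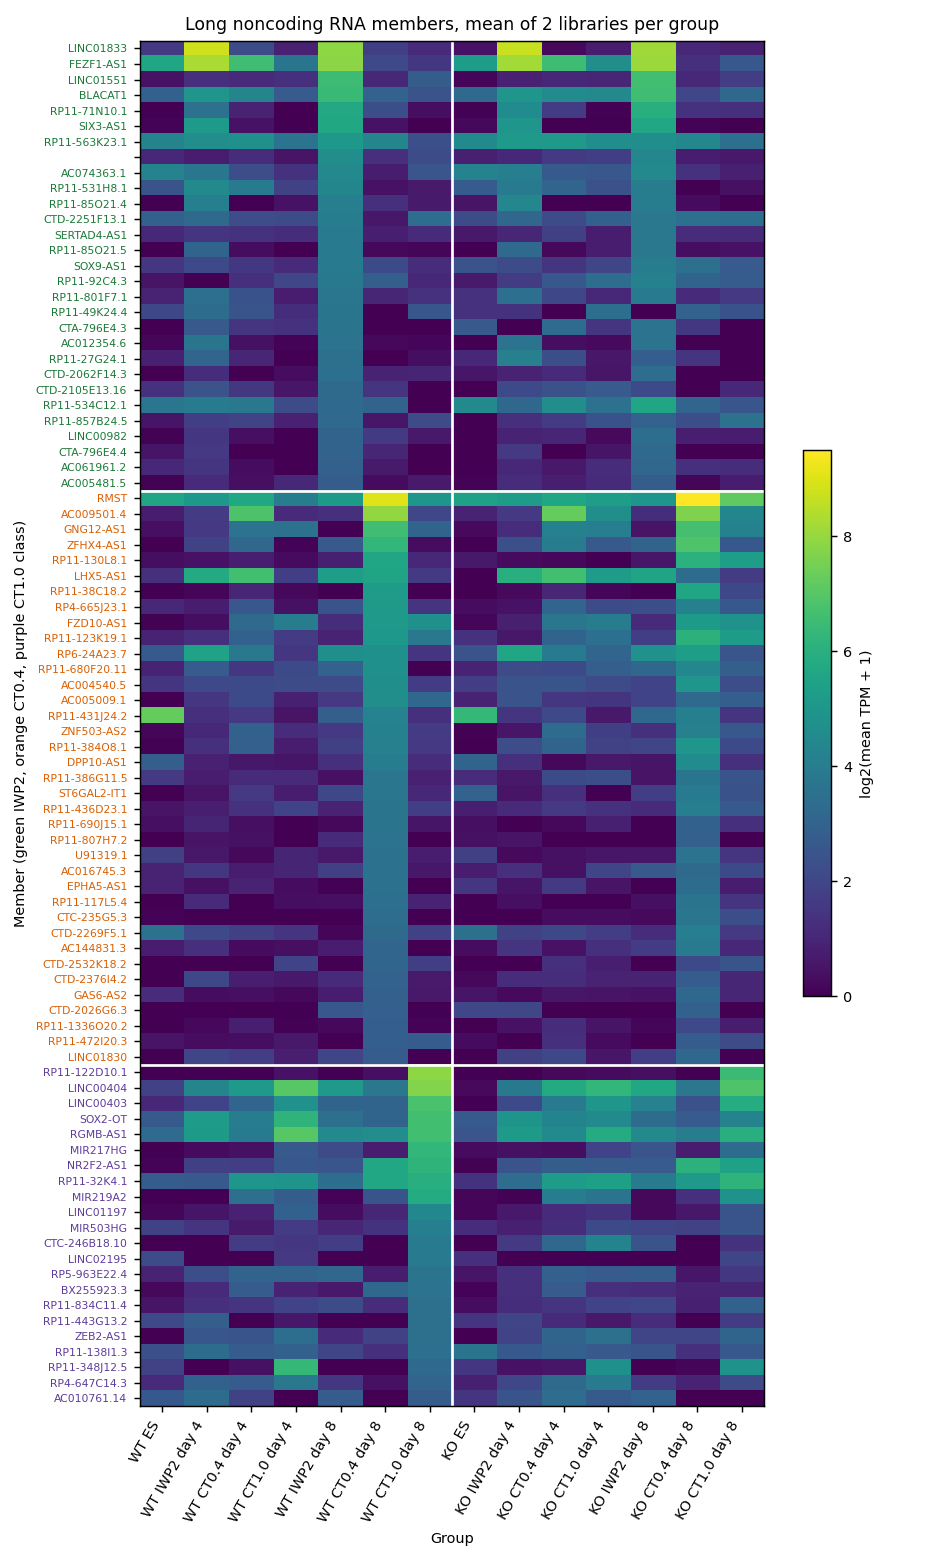
Heat map of the 88 genes (rows, by the wild type day 8 label in which they were highest) over the 14 groups (columns); colour is log2 of the mean TPM + 1 of 2 libraries, and 1 row is left without a name. The blocks that the choice fixes lie in the wild type day 8 columns, and the SOX1-/- day 8 columns show the IWP2 and CT0.4 blocks at like intensity and the CT1.0 block paler. The rule asked for high wild type values in these blocks, so nothing is read from a paler one.

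As for the libraries, the number of genes at 1 TPM or more was lowest in the 4 wild type day 4 libraries of the CT labels (17694 to 18233, against 18876 to 20338 elsewhere). Pluripotency markers summed to 4718 to 5017 TPM on day 0 and 731 to 1524 TPM later. All 10 neural progenitor markers were at 1 TPM or more in every day 8 group. Of 8 listed mesendoderm markers, 7 were found under the listed name, and these summed to 4.57 TPM at most in any library. In bulk RNA, fewer cells of a type and less RNA per cell cannot be told apart. Where the deposited quantification used no strand, reads from overlapping genes on opposite strands cannot be told apart either, which touches the 26 antisense pairs; no source used here gives the strandedness.

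Among the genes of the IWP2 group, several were at the SIX3 locus, FEZF1 and LHX2. LINC01833 (chr2:44921077-44939199, minus strand) starts 2699 bases from SIX3 and SIX3-AS1 (chr2:44940154-44941873, minus strand) 25 bases from it. LINC01833 held 237 and 240.2 TPM in wild type and 349.9 and 215 TPM in SOX1-/- libraries under IWP2 on day 8, against 2.04, 2.74, 1.22 and 0.927 TPM under CT0.4 and 0.296, 2.19, 0.124 and 1.56 TPM under CT1.0. The ranges are far apart in both genotypes. In the SOX1-/- libraries, which the rule did not use, the log2 difference of TPM + 1 was −7.06 (SE 0.50, adjusted p = 2.02e-08) for CT0.4 against IWP2 and −7.34 (adjusted p = 3.72e-08) for CT1.0 against IWP2. LINC01833 was already at 466 and 441 TPM in wild type and 436 and 389 TPM in SOX1-/- libraries under IWP2 on day 4. SIX3-AS1 was lower in level but had the same pattern, with 45.3 and 53.6 TPM in wild type and 63.8 and 38.4 TPM in SOX1-/- libraries under IWP2 on day 8, and differences of −5.56 (adjusted p = 1.7e-10) and −5.66 in SOX1-/- cells. Another gene of the locus, AC012354.6, which starts 12766 bases from SIX3, stood at 11.3 and 11.1 TPM in SOX1-/- cells under IWP2 on day 8 and was listed at 0 in all 4 SOX1-/- libraries of the CT labels.

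FEZF1-AS1 (chr7:122303658-122310077, plus strand), antisense to the forebrain gene FEZF1, was present before differentiation at 45.5 and 47.8 TPM in wild type and 41.1 and 33.5 TPM in SOX1-/- cells. On day 4 wild type cells held 317 and 305 TPM under IWP2, 91.3 and 98.5 TPM under CT0.4 and 12.7 and 10.8 TPM under CT1.0, an order without overlap. By day 8 IWP2 cells of both genotypes held 232 to 286 TPM and cells of both CT labels 0.348 to 7.66 TPM. The SOX1-/- differences on day 8 were −6.94 (adjusted p = 2.61e-09) for CT0.4 and −5.58 (adjusted p = 9.31e-08) for CT1.0 against IWP2. Under the CT labels every day 0 and day 4 library thus lay above every day 8 library.

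LINC01551, a long noncoding RNA listed among the neural ones above, appeared only late. It was at 2.18 TPM or less in every day 4 library, at 86.0 and 93.6 TPM in wild type and 114 and 80.0 TPM in SOX1-/- libraries under IWP2 on day 8, and at 6.74 TPM or less under the CT labels on day 8. In SOX1-/- cells CT0.4 was lower than IWP2 by a log2 difference of −5.57 (adjusted p = 3.27e-09). RP11-85O21.4, on the same strand as LHX2, was early instead, at 14.4 and 17.7 TPM in wild type IWP2 cells on day 4 and 14.3 and 17.4 TPM on day 8.

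BLACAT1, inside the LEMD1 locus on the same strand, held 81.0 and 90.5 TPM in wild type and 106 and 82.9 TPM in SOX1-/- cells under IWP2 on day 8. RP11-71N10.1 held 45.9 and 59.1 TPM in wild type and 66.5 and 58.9 TPM in SOX1-/- cells, and its SOX1-/- differences from IWP2 were −4.64 (adjusted p = 3.94e-08) for CT0.4 and −4.74 (adjusted p = 8.02e-08) for CT1.0. SERTAD4-AS1 held 13.3 to 14.6 TPM in wild type and 12.4 to 13.4 TPM in SOX1-/- cells, with differences of −2.80 (adjusted p = 0.00126) and −2.64 (adjusted p = 0.00198). In these 3 genes the IWP2 libraries lay above those of both CT labels in both genotypes. RP11-563K23.1 was not so clear: wild type IWP2 libraries held 25.5 and 38.9 TPM on day 8 and SOX1-/- libraries 34.9 and 14.1 TPM, with a difference from CT1.0 in SOX1-/- cells that did not pass (−1.08 for CT1.0 against IWP2, adjusted p = 0.0715). SOX9-AS1, named after the progenitor gene SOX9, held 14.7 and 15.7 TPM in SOX1-/- cells under IWP2, and its difference of −1.31 for CT1.0 against IWP2 (adjusted p = 0.0327) ended without SOX1-/- line 26 (adjusted p = 0.256) or line 48 (adjusted p = 0.228) and with median-ratio scaling (adjusted p = 0.115). Genes of the IWP2 group also differed among themselves in time: 15 of 29 were at 5 TPM or more in both wild type IWP2 libraries on day 4, and the others were not.

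**Figure D2:**
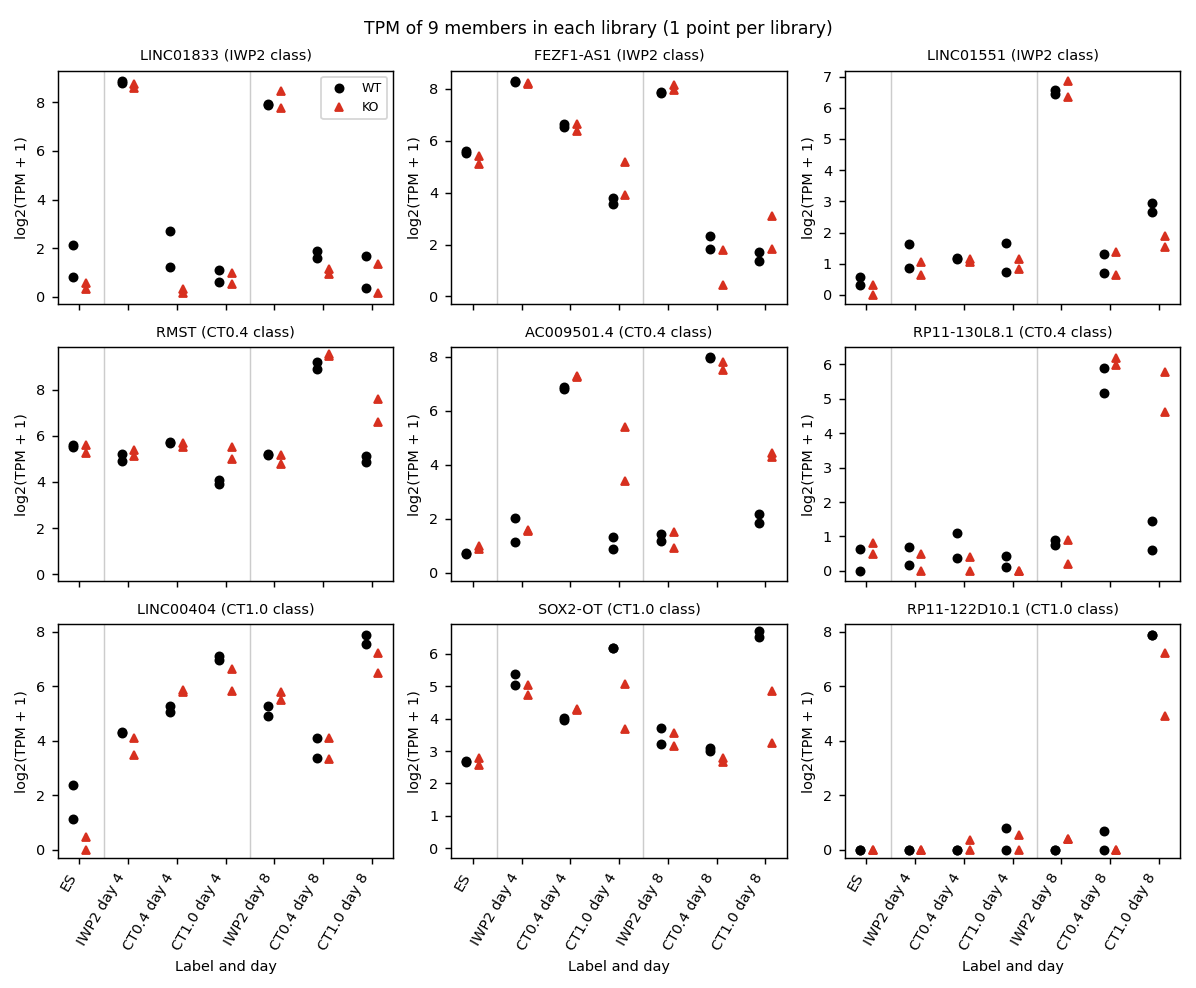
Log2(TPM + 1) of 9 genes in each of the 28 libraries, by day and label; black circles are wild type and red triangles SOX1-/- libraries. The top row holds 3 genes of the IWP2 group, followed by genes highest under CT0.4 and under CT1.0; AC009501.4 shows triangles well above circles under CT1.0, and RP11-122D10.1 is near 0 outside CT1.0 on day 8.

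RMST (chr12:97430884-97598415, plus strand), a long noncoding RNA known from neural progenitors and the host of miR-135a-2 and miR-1251, was the highest gene of the CT0.4 group. It held 589.6 and 471 TPM in wild type and 699 and 746 TPM in SOX1-/- libraries under CT0.4 on day 8. Under IWP2 on day 8 the 4 libraries held 26.3 to 35.7 TPM, close to the 37.6 to 47.8 TPM of day 0. Under CT1.0 on day 8 wild type cells held 34.1 and 27.7 TPM and SOX1-/- cells 192 and 94.8 TPM, without overlap. In SOX1-/- cells RMST was higher under CT0.4 than under IWP2 by 4.53 (adjusted p = 1.04e-09) and higher under CT1.0 than under IWP2 by 2.11 (adjusted p = 1.37e-05), both as log2 differences.

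AC009501.4 (chr2:62957326-63048640, minus strand) starts 1417 bases from OTX1 on the opposite strand. It was high under CT0.4 from day 4, with 116 and 111 TPM in wild type and 149.6 and 156 TPM in SOX1-/- cells, and held 247 and 252 TPM in wild type and 183 and 221 TPM in SOX1-/- cells on day 8. GNG12-AS1 was listed at 0 in both wild type IWP2 libraries on day 8 and stood at 103 and 89.1 TPM under CT0.4, where SOX1-/- cells held 105 and 100.55 TPM. Its SOX1-/- difference between CT0.4 and IWP2 was 6.24 (adjusted p = 1.67e-09). RP11-130L8.1 (chr2:20678254-20678932, minus strand), which lies antisense to the roof plate gene GDF7, held 58.9 and 34.9 TPM in wild type and 71.9 and 61.8 TPM in SOX1-/- cells under CT0.4 on day 8. Under CT1.0 on day 8 it held 1.72 and 0.517 TPM in wild type but 53.8 and 23.5 TPM in SOX1-/- cells, and CT1.0 and CT0.4 differed in SOX1-/- cells by −0.88 (adjusted p = 0.144), which did not pass. FZD10-AS1, which starts 203 bases from the WNT receptor gene FZD10 on the opposite strand, was high under both CT labels on day 8. Under CT0.4 it held 36.7 and 29.8 TPM in wild type and 35.2 and 35.7 TPM in SOX1-/- cells. In wild type cells TPM + 1 of its lower CT0.4 library was only 1.13 times that of its higher CT1.0 library. CT1.0 also met the rule over IWP2 for this gene (ratio 10.9). LHX5-AS1, which starts 277 bases from LHX5, was less regular: CT0.4 libraries on day 8 held 22.4 and 68.9 TPM in wild type and 11.6 and 6.99 TPM in SOX1-/- cells, while IWP2 libraries held 31.8 to 58.9 TPM. LHX5-AS1 entered the choice only through its difference from CT1.0.

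Of other named genes of the CT0.4 group, ZFHX4-AS1 held 83.0 and 73.0 TPM in wild type and 129 and 107 TPM in SOX1-/- cells under CT0.4 on day 8. ZNF503-AS2 held 17.4 and 16.5 TPM in wild type and 17.8 and 15.4 TPM in SOX1-/- cells, with a SOX1-/- difference from IWP2 of 2.84 (adjusted p = 6.51e-06). GAS6-AS2, divergent from GAS6, held 6.27 to 9.64 TPM in the 4 CT0.4 libraries on day 8 and 1.10 TPM or less in the other 8 day 8 libraries, with a SOX1-/- difference from IWP2 of 2.77 (adjusted p = 1.64e-07). In both genes the CT0.4 libraries lay above all others of day 8. DPP10-AS1 held 6.04 to 8.48 TPM on day 0, 2.35 TPM or less on day 4, and 20.0 and 10.3 TPM in wild type and 23.1 and 24.01 TPM in SOX1-/- cells under CT0.4 on day 8. EPHA5-AS1, antisense to the ephrin receptor gene EPHA5, held 9.86 and 11.2 TPM in wild type but 15.4 and 2.93 TPM in SOX1-/- cells, and its SOX1-/- difference from IWP2 (3.01, adjusted p = 0.0077) ended without SOX1-/- line 26 (adjusted p = 0.12).

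Of the CT0.4 group, 10 of 37 genes were at 5 TPM or more in both wild type CT0.4 libraries on day 4. RP11-431J24.2 was instead highest on day 0, with 215 and 85.1 TPM in wild type and 71.8 and 84.7 TPM in SOX1-/- cells, 4.08 TPM or less on day 4 and 15.6 and 19.7 TPM in wild type CT0.4 cells on day 8. It is 1 of 9 genes among the 88 at 5 TPM or more in all 4 day 0 libraries. The others are RMST, FEZF1-AS1, RP11-563K23.1, AC074363.1, RP11-534C12.1, CTD-2269F5.1, BLACAT1 and DPP10-AS1.

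In the CT1.0 group, LINC00404 (chr13:112106095-112106882, minus strand) and LINC00403 (chr13:112107119-112108015, plus strand; named SOX1-OT in GENCODE 29) start 237 bases apart on opposite strands, and 39235 and 39472 bases from SOX1. LINC00404 held 189 and 235 TPM in wild type and 87.9 and 148 TPM in SOX1-/- cells under CT1.0 on day 8, against 9.41 and 16.1 TPM and 16.3 and 9.07 TPM under CT0.4. In SOX1-/- cells CT1.0 was higher than CT0.4 by 3.12 (adjusted p = 1.37e-05). LINC00403 held 94.9 and 119 TPM in wild type and 36.7 and 79.0 TPM in SOX1-/- cells under CT1.0 on day 8, with a SOX1-/- difference from CT0.4 of 3.41 (adjusted p = 7.47e-05). SOX1 itself stood at 72.1 and 79.4 TPM in wild type and 1.14 and 2.77 TPM in SOX1-/- cells under CT1.0 on day 8. The SOX1-/- cells carry the deletion of SOX1, so their SOX1 level is set by genotype.

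SOX2-OT (chr3:180989762-181836880, plus strand), which overlaps the progenitor gene SOX2, held 104 and 91.2 TPM in wild type and 8.50 and 27.8 TPM in SOX1-/- cells under CT1.0 on day 8. In SOX1-/- cells its difference from IWP2 was 0.69 (adjusted p = 0.266). The difference from CT0.4 was 1.32 (adjusted p = 0.0234) and did not pass without SOX1-/- line 48 (adjusted p = 0.251) or without either wild type line (adjusted p = 0.128 each), which enter through the shared estimate of spread. RP11-122D10.1 (chr15:36876379-36887035, minus strand), with no coding gene starting within 100 kb, was the most restricted of the high genes. It held 235 and 232 TPM in wild type and 29.3 and 147 TPM in SOX1-/- cells under CT1.0 on day 8 and 0.751 TPM or less in the other 24 libraries. Its SOX1-/- differences were 5.67 from IWP2 and 6.06 from CT0.4.

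Of the 3 microRNA hosts printed above, MIR217HG held 85.8 and 67.3 TPM in wild type but 2.73 and 15.9 TPM in SOX1-/- cells under CT1.0 on day 8, and its SOX1-/- difference from IWP2 was 0.55 (adjusted p = 0.614). MIR219A2 held 56.9 and 54.6 TPM in wild type and 13.95 and 43.1 TPM in SOX1-/- cells, and its SOX1-/- differences of 4.49 from IWP2 (adjusted p = 4.18e-07) and 3.44 from CT0.4 (adjusted p = 4.94e-06) passed. MIR503HG held 20.9 and 11.7 TPM in wild type and 1.87 and 7.33 TPM in SOX1-/- cells, and neither SOX1-/- difference passed (0.31, adjusted p = 0.765, and 0.48, adjusted p = 0.585). The 3 hosts thus shared the wild type pattern that chose them and differed in the SOX1-/- libraries. NR2F2-AS1, antisense to the nuclear receptor gene NR2F2, was high under both CT labels on day 8, with 78.0 and 65.8 TPM under CT1.0 and 47.2 and 52.0 TPM under CT0.4 in wild type cells. In SOX1-/- cells it was at 28.99 and 56.2 TPM under CT1.0 and 67.4 TPM in each of the CT0.4 libraries. RP11-348J12.5, which starts 1503 bases from the retinoic acid degrading enzyme gene CYP26A1, held 71.7 and 84.9 TPM in wild type and 9.06 and 43.0 TPM in SOX1-/- cells under CT1.0 on day 4. On day 8 it held 7.27 and 9.62 TPM in wild type and 23.8 and 31.2 TPM in SOX1-/- cells, so that wild type libraries were higher on day 4 and SOX1-/- libraries overlapped between the days.

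RGMB-AS1 held 98.7 and 95.1 TPM in wild type and 42.7 and 81.9 TPM in SOX1-/- cells under CT1.0 on day 8. RP11-32K4.1 was high under both CT labels, with 57.7 and 65.5 TPM in wild type and 62.2 and 81.6 TPM in SOX1-/- cells under CT1.0, and its SOX1-/- difference from IWP2 was 2.32 (adjusted p = 5.07e-05). ZEB2-AS1, antisense to the gene of the SMAD-binding repressor ZEB2, held 9.79 and 10.7 TPM in wild type and 6.63 and 8.15 TPM in SOX1-/- cells under CT1.0 on day 8. Its SOX1-/- difference from IWP2 of 1.21 (adjusted p = 0.0182) ended without SOX1-/- line 26 (adjusted p = 0.372) and narrowly without wild type line 1 (adjusted p = 0.0529) or 2 (adjusted p = 0.053). At the other end, BX255923.3 held 8.39 and 14.3 TPM in wild type and 0.798 and 1.19 TPM in SOX1-/- cells under CT1.0, overlapping the SOX1-/- IWP2 libraries at 1.80 and 0.788 TPM (−0.17, adjusted p = 0.906, which did not pass). AC010761.14 held 5.73 and 6.29 TPM in wild type and was listed at 0 in both SOX1-/- libraries, but it was also listed at 0 in 1 of 2 libraries of several other groups. Across the CT1.0 group, 12 of 22 genes were at 5 TPM or more in both wild type CT1.0 libraries on day 4.

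The SOX1-/- day 8 libraries show whether the label differences are found outside the libraries that chose the genes. Differences were tested on log2(TPM + 1) with limma over all 27912 genes that passed a filter on low values, and called at an adjusted p under 0.05. On this scale the change of low genes is understated. The rule itself made all 88 pass the filter, through the wild type day 8 libraries that chose them. Those libraries also enter the shared estimate of spread. The shares over all tested genes are therefore not those of genes chosen in a like way. Of 28 genes chosen as higher under CT0.4 than IWP2, 27 were called higher in SOX1-/- cells, where 8.61% of all tested genes were called higher. Of 21 chosen as lower under CT0.4 than IWP2, 15 were called lower (7.89% of all genes) and 1, RP11-49K24.4, was called higher. That gene held 10.01 and 13.6 TPM under IWP2 in wild type and was listed at 0 in both SOX1-/- IWP2 libraries, with 3.48 and 10.2 TPM under CT0.4 there; its opposite call (2.82, adjusted p = 0.0466) ended when any 1 of the 4 lines was left out (adjusted p = 0.0517 to 0.454) and with median-ratio scaling (adjusted p = 0.067). The median log2 difference in SOX1-/- cells was 3.06 for the genes chosen as higher and −3.47 for those chosen as lower (3.17 and −3.49 in the wild type libraries that chose them), beside a median of 0 over all tested genes in SOX1-/- cells.

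For CT1.0 against IWP2, 21 of 24 genes chosen as lower were called lower in SOX1-/- cells (16.7% of all genes) and 12 of 18 chosen as higher were called higher (3.78% of all genes). For CT1.0 against CT0.4, 24 of 28 were called lower (18.5% of all genes) and 10 of 18 higher (4.54% of all genes). The median SOX1-/- differences were 1.49 and −3.35 relative to IWP2 and 1.35 and −2.19 relative to CT0.4, for genes chosen as higher and as lower. The wild type medians that the choice itself set were 3.36, −3.36, 3.43 and −3.12 in the same order, and nothing is read from the distance to them. The median over all tested genes was −0.16 and −0.14 in these comparisons. With the libraries scaled by median ratios, 6.12% of all genes were called higher and 6.67% lower for CT1.0 against IWP2, and 7.75% and 9.53% for CT1.0 against CT0.4; over all 88 genes, 24 higher and 22 lower calls (24 and 27 unscaled) and 15 and 23 (15 and 28 unscaled) were then made. The 3 comparisons share label groups with each other. Protein-coding genes under the same rule were called in the wild type direction in 97.6% (CT0.4 over IWP2), 95.9% (under), 81.6% (CT1.0 over IWP2), 92.3% (under), 81.7% (CT1.0 over CT0.4) and 91.8% (under) of cases. Calls in the wild type direction numbered 42, 33 and 34 for the 3 pairs of labels in the order given. The last became 22 without SOX1-/- line 48, and in a fit of only the 4 libraries compared they became 20, 0 and 7.

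**Figure D3:**
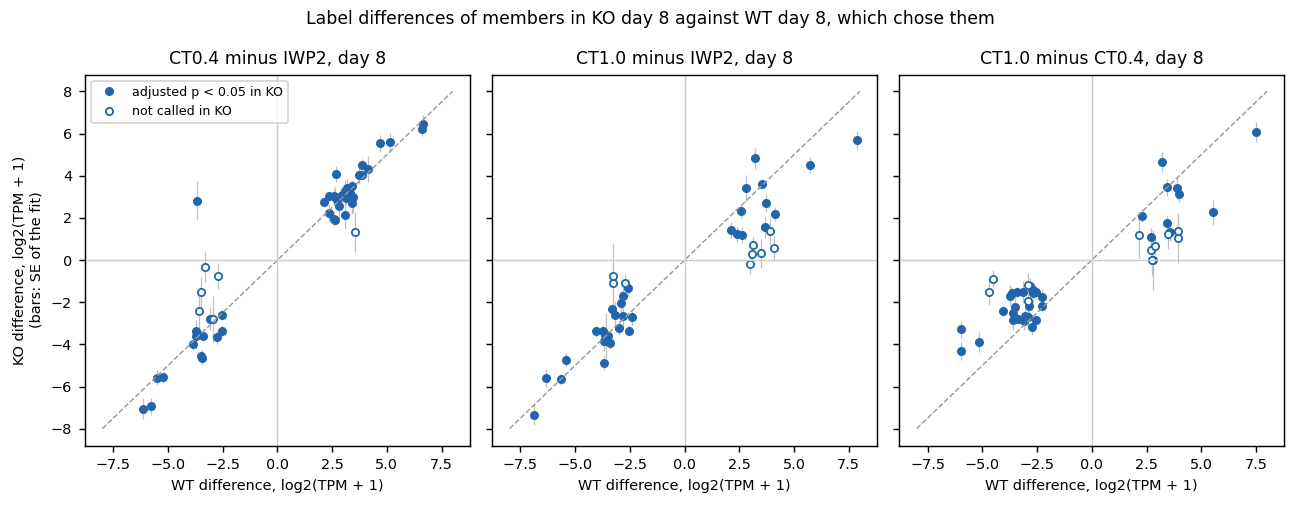
Log2 difference of TPM + 1 between labels on day 8 in wild type cells (horizontal, used for the choice) and in SOX1-/- cells (vertical, not used), 1 panel for each pair of labels and 1 point for each gene chosen on that pair; bars are the SE of the fit and the diagonal marks equal differences. The horizontal values chose the genes, so nothing is read from the distance of a point to the diagonal. The median SOX1-/- difference was 3.06 for genes chosen as higher under CT0.4 than IWP2. For those chosen as higher under CT1.0 it was 1.49 relative to IWP2 and 1.35 relative to CT0.4.

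On day 4 of wild type cells, also outside the choice, fewer differences were called. For CT0.4 against IWP2, 7 of 28 genes chosen as higher on day 8 were called higher (2.45% of all genes) and 9 of 21 lower (10.6% of all genes). For CT1.0 against IWP2, 9 of 18 were called higher (2.82% of all genes) and 15 of 24 lower (17.2% of all genes). For CT1.0 against CT0.4, 6 of 18 were called higher (2% of all genes) and 8 of 28 lower (4.47% of all genes). Among the genes called on day 4 were LINC01833, FEZF1-AS1 and RP11-85O21.4, higher under IWP2, and AC009501.4, higher under CT0.4. A call against the day 8 direction was made for RP11-443G13.2, with 5.98 and 6.79 TPM under IWP2 and 1.04 and 0 TPM under CT1.0 on day 4, and 0 in both IWP2 libraries and 11.6 and 9.04 TPM under CT1.0 on day 8. The other was RP11-92C4.3 (log2 difference 1.92, adjusted p = 0.0113). Neither passed without wild type line 1 (adjusted p = 0.249 and 0.143) or line 2 (adjusted p = 0.48 and 0.361). Without wild type line 1 the calls in the day 8 direction went from 16 to 10, from 24 to 17 and from 14 to 6, and without line 2 to 10, 19 and 6. With median-ratio scaling 6.34% of all genes were called higher and 5.19% lower for CT0.4 against IWP2, and 6.41% and 5.52% for CT1.0 against IWP2.

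The label in which a gene was highest was the same in SOX1-/- day 8 cells for 27 of 29 genes of the IWP2 group, 35 of 37 of the CT0.4 group and 17 of 22 of the CT1.0 group. On day 4 of wild type cells it was the same for 25, 18 and 14 of them, and on day 4 of SOX1-/- cells for 17, 21 and 14.

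SOX1-/- and wild type cells were compared within each label where the choice had used neither group. On day 0, 1 of 88 genes was called, beside 0.219% of all genes: ST6GAL2-IT1 was listed at 0 in both wild type libraries and held 6.30 and 7.40 TPM in SOX1-/- cells (log2 difference 2.97, SE 0.49, adjusted p = 0.0135). It did not pass when any 1 of the 4 lines was left out (adjusted p = 0.0625 to 0.154). On day 4 under IWP2 limma called none (0.043% of all genes were called), and none were called under any alternative fit. An unadjusted limma p under 0.05 was found there for 10 of the 88 and for 2317 of all 27912 tested genes. Nothing is read from this. Under CT0.4 the only gene called was CTD-2062F14.3 (4.24% of all genes were called), listed at 0 in wild type and at 1.57 and 0.894 TPM in SOX1-/- cells, and this call also ended when any 1 line was left out.

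Under CT1.0 on day 4, 14 of the 88 genes differed between SOX1-/- and wild type cells. The 10 that were higher in SOX1-/- cells are a share of the 88 close to the 12.4% of all genes called higher, so their number is no result about the 88. They comprised 9 of the CT0.4 group and BLACAT1 of the IWP2 group. The 4 that were lower, where 2.49% of all genes were, were all of the CT1.0 group. With median-ratio scaling 9 were higher and 4 lower, while 6.32% and 9.09% of all genes were; the median over all tested genes was 0.19 unscaled. The count of 14 became 8 without SOX1-/- line 26, 21 without line 48, 6 without wild type line 1 and 8 without wild type line 2. In a fit of only the 4 libraries compared, 1 gene was called.

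AC009501.4, next to OTX1, held 1.51 and 0.866 TPM in wild type and 40.8 and 9.52 TPM in SOX1-/- cells under CT1.0 on day 4. The log2 difference was 3.28 (adjusted p = 9.76e-05). LHX5-AS1 held 1.78 and 3.00 TPM in wild type and 54.7 and 18.95 TPM in SOX1-/- cells (3.32, adjusted p = 0.000314). RP6-24A23.7 held 2.17 and 1.51 TPM in wild type and 9.10 and 5.86 TPM in SOX1-/- cells (1.56, adjusted p = 0.00012). In these 3 genes the SOX1-/- libraries lay above the wild type ones without overlap, line 26 was above line 48, and the calls passed whichever 1 of the 4 lines was left out. RMST held 16.1 and 13.9 TPM in wild type and 45.2 and 30.9 TPM in SOX1-/- cells (1.27, adjusted p = 0.00281), but did not pass without wild type line 1 (adjusted p = 0.0947) or line 2 (adjusted p = 0.118). ZFHX4-AS1, antisense to the transcription factor gene ZFHX4, held 0.0566 and 0.0561 TPM in wild type and 6.31 and 4.33 TPM in SOX1-/- cells (2.56, adjusted p = 0.00068), and the call ended without wild type line 1 (adjusted p = 0.0577). BLACAT1 held 6.32 and 5.03 TPM in wild type and 27.6 and 14.8 TPM in SOX1-/- cells (1.68, adjusted p = 0.000626), a call that ended without SOX1-/- line 26 (adjusted p = 0.0563). The others were RP11-384O8.1 near PAX3, RP11-123K19.1 next to LMX1B, RP4-665J23.1 and RP11-386G11.5, with log2 differences of 1.14, 2.23, 1.74 and 1.11. Without wild type line 1 the first and second calls ended (adjusted p = 0.0716 and 0.338), and without SOX1-/- line 26 the second, RP4-665J23.1 and RP11-386G11.5 (adjusted p = 0.196, 0.0613 and 0.411). RP11-123K19.1 also did not pass without line 48 (adjusted p = 0.158), nor RP11-386G11.5 without wild type line 1 (adjusted p = 0.102) or 2 (adjusted p = 0.346).

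Of the genes lower in SOX1-/- cells under CT1.0 on day 4, SOX2-OT held 71.1 and 72.5 TPM in wild type and 11.9 and 32.7 TPM in SOX1-/- cells. Its log2 difference of −1.80 (adjusted p = 0.00608) did not pass without wild type line 1 (adjusted p = 0.165) or line 2 (adjusted p = 0.149). RGMB-AS1, antisense to the BMP co-receptor gene RGMB, held 122 and 135 TPM in wild type and 29.6 and 84.7 TPM in SOX1-/- cells (−1.33, adjusted p = 0.0268). LINC01197 held 4.92 and 8.64 TPM in wild type and 1.58 and 1.63 TPM in SOX1-/- cells (−1.54, adjusted p = 0.00446), and RP11-348J12.5 had a difference of −1.91 (adjusted p = 0.0141). In all 4 the libraries of the genotypes did not overlap. That is likely for any gene called on these same libraries, so it adds no support. Without SOX1-/- line 26 the last 3 calls ended (adjusted p = 0.0591, 0.0592 and 0.232, in the order given). Those of RGMB-AS1 (adjusted p = 0.268 and 0.293) and RP11-348J12.5 (adjusted p = 0.171 and 0.197) also ended without wild type line 1 or 2, and that of LINC01197 without line 2 (adjusted p = 0.109). Beside these changes, the marker lists moved in the same libraries: midbrain and dorsal markers summed to 105 and 50.8 TPM in SOX1-/- and 11.3 and 8.83 TPM in wild type cells under CT1.0 on day 4, and forebrain markers to 179 and 75.5 TPM against 34.0 and 18.1 TPM. Their part in the result was not tested.

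**Figure D4:**
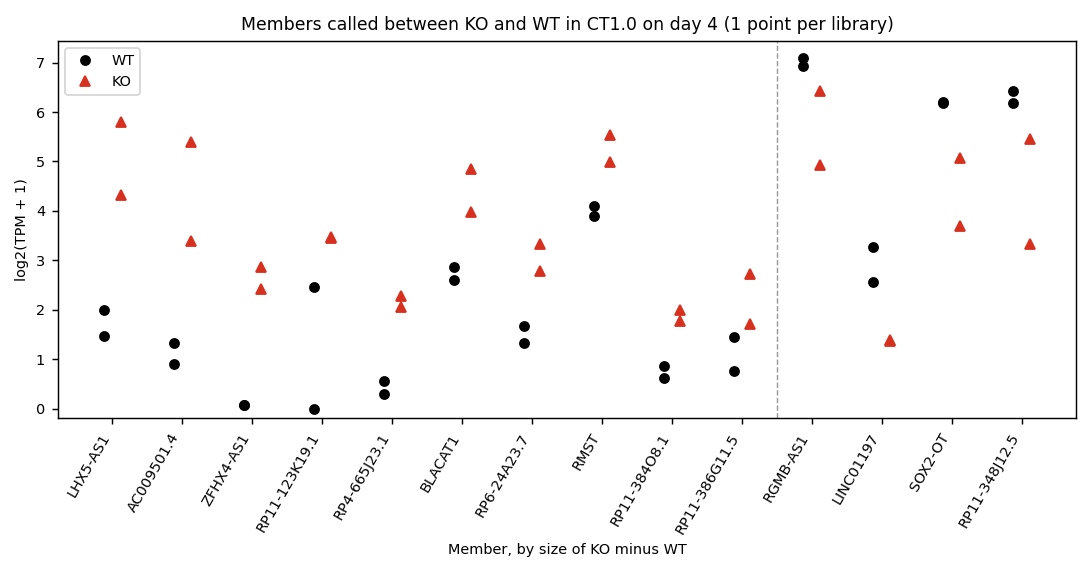
Log2(TPM + 1) under CT1.0 on day 4 of the 14 genes called between SOX1-/- (red triangles) and wild type (black circles) libraries, 2 of each. The 10 genes with triangles above circles are 9 of the CT0.4 group and BLACAT1, and the 4 with triangles below are of the CT1.0 group.

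Whether the difference between genotypes on day 4 depended on the label was tested directly. Relative to IWP2, the SOX1-/- effect under CT1.0 was called higher for AC009501.4, BLACAT1, LHX5-AS1, RP4-665J23.1 and RP6-24A23.7 and lower for LINC01197 (4.41% of all genes were called higher and 0.684% lower). The shares of the 88 were close to these, so the number called is no result about the 88. These 6 calls became 0 without SOX1-/- line 26, 10 without line 48, 0 without wild type line 1 and 2 without wild type line 2. Relative to CT0.4, it was called for LHX5-AS1 and RP6-24A23.7 (0.297% of all genes), calls that became 0, 8, 0 and 0 in the same order. Between CT0.4 and IWP2 limma called none (1.34% of all genes). An unadjusted limma p under 0.05 was found for 10 of the 88 and for 3834 of all 27912 tested genes, and nothing is read from this.

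On day 8, where the choice used the wild type libraries, the genotypes are set side by side without a test. Under CT1.0, both SOX1-/- libraries lay above both wild type libraries for 24 of 37 genes of the CT0.4 group and below for none, with a median log2 difference of 0.74. For the CT1.0 group they lay above for 1 gene and below for 20 of 22, with a median of −1.46. Of all tested genes, 20.3% lay above and 30.2% below. The rule asked for a low wild type level of most genes in the first case and a high one in the second. Nothing is therefore read from these counts. The summed TPM of the CT0.4 group under CT1.0 was 428 and 315 in SOX1-/- against 139.9 and 107 in wild type cells, and that of the CT1.0 group 363 and 768 against 1149 and 1179. The SOX1-/- lines differed here, line 48 holding the higher sum of the CT1.0 group and more of MIR219A2, RP11-122D10.1 and LINC00403; the sum was also higher in line 48 on day 4 (455 against 230.3 TPM). In the same libraries neuron markers summed to 139.8 and 322 TPM in SOX1-/- and 752 and 615 TPM in wild type cells, neural crest markers to 118 and 106 TPM against 43.1 and 31.6 TPM, and neural progenitor markers to 816 and 1047 TPM against 1722 and 1653 TPM. Hindbrain and ventral markers summed to 30.2 and 56.2 TPM against 113 and 121 TPM, forebrain markers to 93.4 and 57.7 TPM against 23.2 and 18.9 TPM, and midbrain and dorsal markers to 305 and 187 TPM against 28.03 and 16.3 TPM. Their part in the result was not tested. Under CT0.4 the SOX1-/- libraries lay above for 18 and below for 23 of the 88 genes (19.9% and 15.3% of all genes), and under IWP2 above for 12 and below for 7 (15% and 14.5% of all genes).

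The values of the coding neighbours were not used by the rule. The 68 genes with a neighbour had 61 distinct ones, and 64 of the 68 pairs had a neighbour that passed the filter. Direction here is that of the noncoding gene in the wild type day 8 cells that chose it. In SOX1-/- cells on day 8 the neighbour was called in that direction in 48 of 64 pairs and in the opposite one in 3. On day 4 of wild type cells the counts were 31 and 1. The noncoding gene itself was not always called there, as for NR2F2-AS1 beside NR2F2 on day 4. Beside this, 3.78% to 18.5% of all tested genes were called in 1 direction in the SOX1-/- day 8 comparisons and 2% to 17.2% in those of wild type day 4. Counted by distinct neighbour, 42 of 57 were so called on day 8 and 27 on day 4. Of the 31 pairs whose starts lay within 5 kb, the counts were 24 with 0 opposite on day 8 and 17 on day 4. Of the 33 others they were 24 with 3 opposite and 14 with 1 opposite. That 1 was RHBDL3 (log2 difference −1.50 for CT1.0 against IWP2), whose noncoding gene RP11-443G13.2 was also lower there (−2.37). In the wild type day 8 cells that chose the noncoding genes, the neighbour was highest under the same label in 57 of 64 pairs, which is given as a description.

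Across the means of the 14 groups, the median Pearson r of a pair on the log2(TPM + 1) scale was 0.907, 43 pairs had r of 0.8 or more and 4 had r below 0. Without the 3 wild type day 8 groups, which chose the noncoding genes, the median over 11 groups was 0.884, with 42 and 5 pairs; this setting was chosen after the data were seen. These points share libraries for both genes, so the values are a description. At the SIX3 locus r was 0.995 for LINC01833, 0.994 for SIX3-AS1 and 0.998 for AC012354.6. It was 0.996 for FEZF1-AS1 with FEZF1, 0.995 for AC009501.4 with OTX1, 0.993 for RP11-130L8.1 with GDF7 and 0.983 for LHX5-AS1 with LHX5. Without the wild type day 8 groups r was 0.987 for LHX5-AS1 and 0.994 to 0.998 for the other genes of these loci. Lower values were found for SOX2-OT with SOX2 (0.47) and for GNG12-AS1 with GNG12 (0.44). For LINC00404 and LINC00403 with SOX1 r was 0.63 each, but 7 of the 14 groups lack SOX1. Over the 7 wild type groups r was 0.881 and 0.925, and these include the 3 day 8 groups that chose both genes. Over the 11 groups without those 3, of which 7 lack SOX1, r was 0.621 and 0.538. LINC00404 and LINC00403, whose starts are 237 bases apart, had r of 0.951 with each other. MIR503HG and HPRT1, whose starts are 86479 bases apart, had r of −0.48. No coding gene started within 100 kb of RMST, MIR217HG, RP11-122D10.1, RP11-71N10.1, LINC01197 or RP11-32K4.1.

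**Figure D5:**
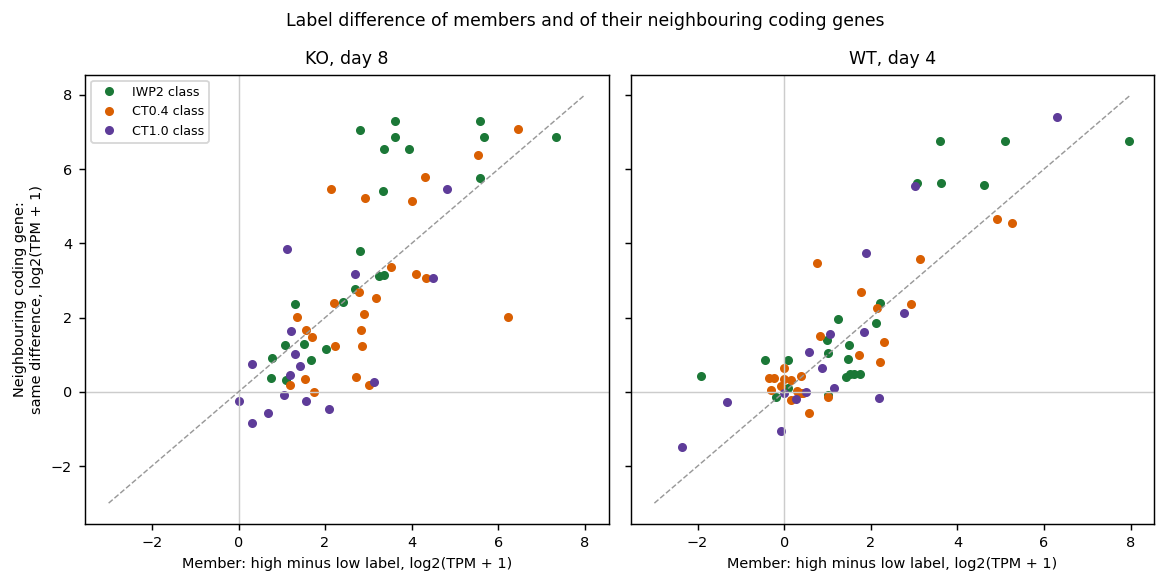
Log2 difference of TPM + 1 (label where the noncoding gene was chosen as high minus label where it was low) for each noncoding gene (horizontal) and its coding neighbour (vertical), in SOX1-/- cells on day 8 and in wild type cells on day 4, for 64 pairs. On day 8 most points lie in the upper right. There 48 neighbours were called in the direction that the noncoding gene had in wild type day 8 cells and 3 in the opposite one.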

How the data were processed

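RNA-seq of poly(A) RNA was made on a HiSeq2000 or X-ten (no source used here tells which library). Per the submitters' processing notes, CASAVA 1.7, Salmon 0.8.2 and hg38 were used; the annotation release and strandedness: not given in the sources used. The values used are TPM per gene, as deposited by the authors; TPM keeps no depth, so the depth is unknown and no counting error is given. All 28 columns were matched to samples by name. Values were analysed as log2(TPM + 1). Genes at 1 TPM or more in at least 2 libraries (27912) entered 1 limma 3.58.1 fit (R 4.3.3) with a mean for each of 14 groups, an intensity trend and 14 residual degrees of freedom. P-values are two-sided and Benjamini-Hochberg adjusted over all tested genes within each of 13 comparisons. With 2 libraries a group the smallest exact p for 1 gene is 0.333. On simulated data with 2 changed fold sizes, for SOX1-/- CT1.0 against IWP2 on day 8, 74% of genes with a log2 change of 1 and 90% with 2 were called, and 8.38% of calls were false; for SOX1-/- against wild type under CT1.0 on day 4 these were 68%, 90% and 5.95%, and for the interaction of CT1.0 with IWP2 on day 4 43%, 86% and 2.27%.

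The 88 genes, the gene and marker lists and the tests were chosen with earlier results of these data known. Named genes are, in each group of genes, the 6 with a symbol and the 2 with a clone identifier highest in wild type cells, genes that carry a coding gene's name, up to 8 whose SOX1-/- day 8 libraries stand apart 4 times, up to 4 by fold called in each SOX1-/- against wild type comparison, those nearest the limit, and known neural genes. Other genes named, such as those called on day 4 beyond these, microRNA hosts and neighbours of regional genes, were chosen after their values were seen. Differences used by the choice were not tested. Positions, neighbours and the microRNA genes spanned are from GENCODE 29 (GRCh38), start windows and mature microRNAs from RefSeq (GRCh38.p14). Alternatives were pseudocount 0.1, no filter, median-ratio scaling, no trend with robust variances, only the libraries compared, a log2 change of at least 1, a replicate block, leaving out each line, and other limits of the rule. One gene that the naming rule selects is not reported here by name.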

Additional observations from a re-analysis of the deposited data

Results flagged for a closer look

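For 6 genes named above limma's interaction term called the effect of genotype on day 4 different between CT1.0 and IWP2. Of all tested genes 4.41% were called higher and 0.684% lower there, shares close to those of the 88, so the number 6 is no result about the 88. Between CT1.0 and CT0.4, where 2 of them were called, the share of all tested genes was 0.297%. For AC009501.4 the SOX1-/- minus wild type difference was larger under CT1.0 than under IWP2 by 3.29 on the log2 scale (adjusted p = 0.00427). It did not pass without SOX1-/- line 26 (2.32, adjusted p = 0.0587), wild type line 1 (adjusted p = 0.0989) or wild type line 2 (adjusted p = 0.195). For BLACAT1 it was larger by 1.6998 (adjusted p = 0.0180), which did not pass without any 1 of the 4 lines (adjusted p = 0.0541 to 0.18). For LHX5-AS1 it was larger under CT1.0 by 3.17 against IWP2 (adjusted p = 0.0150) and by 3.38 against CT0.4 (adjusted p = 0.0489). The first did not pass without SOX1-/- line 26 (adjusted p = 0.141), wild type line 1 (adjusted p = 0.197) or wild type line 2 (adjusted p = 0.111), and the second did not pass without the same lines (adjusted p = 0.282, 0.4 and 0.327). For RP6-24A23.7 it was larger under CT1.0 by 1.47 against IWP2 (adjusted p = 0.00779) and by 1.49 against CT0.4 (adjusted p = 0.0385), which did not pass without SOX1-/- line 26 (adjusted p = 0.176 and 0.314), wild type line 1 (adjusted p = 0.0951 and 0.131) or wild type line 2 (adjusted p = 0.0901 and 0.399). For RP4-665J23.1 it was larger by 2.01 against IWP2 (adjusted p = 0.0158), which did not pass without SOX1-/- line 26 (adjusted p = 0.217), line 48 (adjusted p = 0.0774) or wild type line 1 (adjusted p = 0.228). For LINC01197 the difference was smaller, by −1.66 (adjusted p = 0.0460), and did not pass without any 1 line (adjusted p = 0.166 to 0.228). In all 6 genes the SOX1-/- and wild type libraries under CT1.0 on day 4 did not overlap. All 6 had been called between the genotypes on these same libraries, so this is a description and adds no support.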

How the results depend on the processing

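Fitting only the libraries compared moved the count of genes called most: in SOX1-/- cells on day 8 it gave 20, 0 and 7 (from 42, 33 and 34), in wild type cells on day 4 it gave 4 for CT0.4 against IWP2 and 7 for CT1.0 against CT0.4, and for SOX1-/- against wild type 3 on day 0, 0 under CT0.4 and 1 under CT1.0 on day 4, with 1 each for the interactions of CT0.4 and of CT1.0 with IWP2. Such a fit has fewer samples to estimate the spread. Pseudocount 0.1 gave 3 on day 0, 2 under CT0.4 on day 4, 1 for the interaction of CT0.4 with IWP2 and 4 for that of CT1.0 with CT0.4. For that last interaction no filter gave 1 and no trend with robust variances 0. Under CT0.4 on day 4 median-ratio scaling gave 3 and the line as a replicate block 2; the block moved no other count by over 1.5 times. Same-numbered libraries deviated together little (correlations −0.094 to 0.078 in wild type and −0.057 to 0.204 in SOX1-/- libraries, 0 and 8 of 21 pairs above 0.1), which fell short of pairing every number, so the block is given here only; it ended 1 call of a single gene, that of RP11-49K24.4 for CT0.4 against IWP2 in SOX1-/- cells on day 8 (2.82, adjusted p = 0.062). Leaving out a line gave 37 to 40, 26 to 29 and 22 to 29 calls in SOX1-/- cells on day 8, 10 to 20, 17 to 26 and 6 to 15 in wild type cells on day 4, 0 to 1 on day 0, 0 to 1 under CT0.4 and 6 to 21 under CT1.0 on day 4, and 0 to 10 and 0 to 8 for the interactions of CT1.0 with IWP2 and CT0.4. A log2 change of at least 1 moved no count by over 1.5 times.

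The rule chose 126 genes at a factor of 3, 59 at 6, 125 at a minimum of 2 TPM, 51 at 10 TPM and 82 after median-ratio scaling, of which 81 were among the 88. Differences of single genes that changed sign did not pass: BX255923.3 for CT1.0 against IWP2 in SOX1-/- cells on day 8 (−0.64 to 0.30 over the lines left out), and on day 4 of wild type cells EPHA5-AS1 for CT1.0 against CT0.4 (−1.46 to 0.60) and, for CT0.4 against IWP2, LINC01551 (−0.44 to 0.27, and 0.056 with median-ratio scaling), SERTAD4-AS1 (−0.33 to 0.17, and 0.076) and RP11-49K24.4 (−2.04 to 0.76), the positive value being that without SOX1-/- line 26 for the first and without wild type line 1 for the others. The cause was not tested. Of the 88 genes, 66 were listed at 0 in at least 1 library, and their differences depend on the pseudocount.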
